A study of Mus musculus with 6 samples.

Results

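Oxidative phosphorylation is carried out by protein complexes of the inner mitochondrial membrane. The genes described here encode their subunits from the nuclear genome. They were taken by symbol: names that begin with Ndufa, Ndufb, Ndufc, Ndufs or Ndufv without the Ndufaf assembly factors, with Uqcr, Atp5 or Cox4 to Cox8, and Sdha to Sdhd. On the arrays this gave 82 genes of 18193 measured, read by 169 probe sets. Complex I had 34 of them, complex II 4, complex III 8, complex IV 19 and complex V 17. Cox7b meets the rule but is named by no probe set used here, and Ndufs6 and Ndufa11 are named only by probe sets shared with another gene, so no gene value is given for Cox7b, Ndufs6 and Ndufa11.

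Complexes I and II feed electrons from NADH and succinate to ubiquinone, complex III passes them to cytochrome c, and complex IV to oxygen. Complexes I, III and IV pump protons, and complex V, the ATP synthase, uses the gradient to make ATP. Several small subunits of complex IV exist as paralogues, one made in most tissues and another mainly in heart and skeletal muscle, lung or testis. Heart muscle gains mitochondria as the fetal heart matures.

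RNA was hybridised to Affymetrix whole-genome mouse arrays, with 3 groups of 2 arrays. One group was the atrioventricular (AV) valve of wild-type FVB/N mouse embryos at embryonic day 17.5 (E17.5). The second was the AV cushion of wild-type FVB/N embryos at embryonic day 12.5 (E12.5), the tissue from which the valve forms. The third was MC3T3-E1 subclone 4, a mouse osteoblast progenitor line grown in culture. No treatment or engineered allele is named for any group, each array carried pooled RNA, and the line is 1 subclone.

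Each deposited value was a ratio to the median of the 4 valve and cushion arrays. A log2 ratio of 0 is therefore the middle of those arrays, and the level of one gene against another was not retained. The lowest ratio was 0.01 (log2 -6.64). Differences are log2 differences with the standard error of limma. A gene passed at a Benjamini-Hochberg adjusted p below 0.05 over all 18193 genes, and was called at 2-fold where it also differed at least 2-fold. With 2 arrays against 2 the smallest p of an exact permutation is 0.333. The labels name 2 ways of amplifying the RNA without tying them to samples, and the part of amplification in any difference was not tested. The labels call the arrays biological duplicates and name no separate litters or cultures, so p-values measure only how these RNA pools vary, which may be technical.

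For these genes the arrays of a group were close to each other. The median absolute log2 difference between the arrays of a group was 0.046 in E17.5 valve, 0.086 in E12.5 cushion and 0.057 in MC3T3. Only Cox6b2 in E12.5 cushion differed at least 2-fold between replicates. The dissected tissue held other cell types. Of 28 cardiomyocyte markers all 28 were higher in the E17.5 valve than in MC3T3 and 17 were higher than in E12.5 cushion, and 19 had a probe set at the floor in MC3T3, among them Myh7, Tnni3 and Nppa. Their mean log2 ratio was 0.34 and 0.27 in E17.5 valve, -0.59 and -0.55 in E12.5 cushion, and -5.38 and -5.37 in MC3T3. Of 12 endothelial markers 11 were higher in the E17.5 valve than in MC3T3, with a mean log2 ratio of 0.16 and 0.29 in E17.5 valve, -0.32 and -0.30 in E12.5 cushion, and -3.38 and -3.42 in MC3T3. Hepatocyte markers averaged 2.39 and 0.17 on the E17.5 valve arrays and -0.31 and -1.14 on the E12.5 cushion arrays. In such bulk tissue, fewer cells of a type and less RNA per cell cannot be told apart.

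Against MC3T3 cells, the E17.5 valve had more RNA of most subunits in every complex. Of the 82 genes 70 were higher and 0 lower, where 21.3% of all genes were higher and 38.8% lower (60.1% passed either way). At 2-fold 24 were higher and 0 lower, against 9.78% and 7.94% of all genes (17.7% either way). Neither E17.5 array overlapped the MC3T3 arrays for 74 genes that were higher, against 28.1% of all genes, and for 4 that were lower, against 55.9%. The median log2 difference was 0.73 over these genes and -0.15 over all genes. After the median of each array was subtracted (centring), 26.4% of all genes were higher and 28.2% lower, and the median over the subunit genes was 0.85 with 73 higher and 0 lower.

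The E12.5 cushion stood above MC3T3 cells in much the same way. In this comparison 69 genes were higher, where 29.4% of all genes were, and 2 (Cox7c and Atp5c1) were lower, where 28.3% were (57.6% passed either way). At 2-fold 17 were higher and 0 lower, against 10.2% and 10.8% of all genes (21.1% either way). The arrays did not overlap for 74 higher genes, against 40.4% of all genes, and for 4 lower ones, against 38.1%. The median log2 difference was 0.56 over the subunit genes and 0.010 over all genes. Both comparisons use the same MC3T3 arrays. In 67 genes both embryonic groups were higher, in Cox7c, Ndufab1 and Sdha the E17.5 valve alone passed as higher, and in Cox4i2 and Uqcrq the E12.5 cushion alone.

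Between the embryonic stages the differences were small. At E17.5 24 genes were higher than at E12.5, against 19.3% of all genes, and 1, Cox4i2, was lower, against 34.2% (53.5% passed either way). Only Cox8b and Cox7c were called at 2-fold as higher, against 4.67% of all genes, and 0 as lower, against 1.84% (6.51% either way). The arrays of the stages did not overlap for 50 genes higher at E17.5, against 25.9% of all genes, and for 7 lower ones, against 52.8%. The median log2 difference was 0.12, with -0.14 over all genes. Centring each array raised the median over these genes to 0.24 and the count to 45 higher and 1 lower, with 24.2% of all genes higher and 22.1% lower. Without replicate 1 of the E17.5 valve, the array with the high hepatocyte markers, 10 genes passed, of which 9 of the 82 were higher, a share below the 15.4% of all genes higher in that fit. Without replicate 2 of the E12.5 cushion 13 were higher (15.9%) and 4 lower, where 17.3% of all genes were higher. The share of subunit genes higher at E17.5 was thus above that of all genes with all arrays (29.3%), and below it without either of these arrays. The share that was lower stayed under that of all genes in both, at 1.2% against 25.8% and 4.9% against 33.0%. The part of that array or of the markers in the count was not tested.

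The array medians over the 82 genes show the same order. The median log2 ratio was 0.060 and 0.042 on the E17.5 valve arrays, -0.026 and -0.11 on the E12.5 cushion arrays, and -0.59 and -0.69 on the MC3T3 arrays. The stages lay close to each other and both well above MC3T3. Replicate 1 was the higher array in 52 of the 82 genes in E17.5 valve, 64 in E12.5 cushion and 58 in MC3T3. A test over all 3 groups at once (limma F test) passed in 72 of the genes and in 74.3% of all genes.

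**Figure D1:**
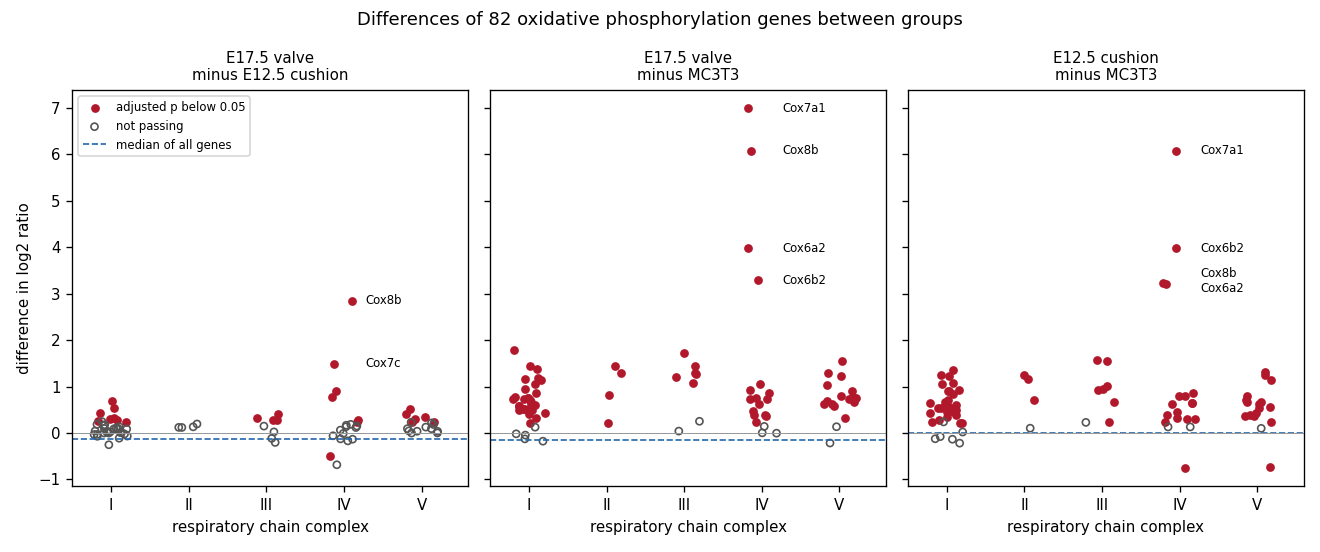
Log2 differences of the 82 subunit genes, by complex, for E17.5 valve minus E12.5 cushion, E17.5 valve minus MC3T3 and E12.5 cushion minus MC3T3. Each point is a gene, filled where the adjusted p was below 0.05, the dashed line is the median of all genes, and the named complex IV isoforms lie far above the other subunits in both comparisons with MC3T3.

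Complex I, the NADH dehydrogenase, held 29 higher genes of 34 in E17.5 valve against MC3T3, with a median log2 difference of 0.60. Its 6 measured core subunits, among them its flavin and iron-sulfur proteins, were all higher, with differences between 0.52 and 1.38. Ndufs1, an iron-sulfur subunit of the NADH-binding arm, had log2 ratios of 0.40 and 0.19 in E17.5 valve, -0.28 and -0.22 in E12.5 cushion, and -1.12 and -1.04 in MC3T3. The 3 groups did not overlap. Ndufs1 was 2.59-fold higher in the E17.5 valve than in MC3T3 (log2 difference 1.38 ± 0.092, adjusted p = 6.65e-06) and 1.46-fold higher than in E12.5 cushion (0.55 ± 0.092, adjusted p = 0.00196). Ndufs7, a core subunit near the ubiquinone site, was 2.24-fold higher in E17.5 valve and 2.12-fold higher in the E12.5 cushion than in MC3T3. Its difference between stages was 0.08 ± 0.092 (adjusted p = 0.47). Ndufv1, which binds NADH and the flavin, was 1.44-fold higher in E17.5 valve and 1.47-fold higher in the E12.5 cushion than in MC3T3.

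Of the 28 accessory subunits, which surround the core, 23 were higher in the E17.5 valve than in MC3T3 and 5 did not pass. Ndufa6, a small subunit on the matrix arm, had log2 ratios of 0.15 and 0.15 in E17.5 valve, -0.17 and -0.38 in E12.5 cushion, and -1.61 and -1.67 in MC3T3. No other complex I gene differed as much from MC3T3, at 3.47-fold in E17.5 valve (1.79 ± 0.092, adjusted p = 1.48e-06) and 2.58-fold in E12.5 cushion. Ndufc1, a membrane arm subunit, was 2.71-fold higher in the E17.5 valve than in MC3T3, Ndufb7 2.28-fold, Ndufa10 2.21-fold and Ndufb1 2.07-fold. Ndufa7, Ndufb4, Ndufb8, Ndufs4 and Ndufs5 did not pass against MC3T3 in either stage, with log2 differences of -0.18 to 0.12 in E17.5 valve.

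Ndufab1, the mitochondrial acyl carrier protein that also serves as a complex I subunit, had the largest stage difference of complex I. Its log2 ratios were 0.41 and 0.25 in E17.5 valve, -0.41 and -0.29 in E12.5 cushion, and -0.26 and -0.28 in MC3T3. On the gene mean, E12.5 cushion lay with MC3T3 and E17.5 valve above both. Ndufab1 was 1.60-fold higher in E17.5 valve than in E12.5 cushion (0.68 ± 0.087, adjusted p = 0.000577). Its 5 probe sets did not move together, with E17.5 valve minus MC3T3 differences of 1.42, 1.01, 0.75, 0.29 and -0.47, and with the most variable of them alone the difference from MC3T3 is the negative one. In the same order, E12.5 cushion minus MC3T3 was 1.20, 1.05, -0.20, -0.59 and -1.85, and E17.5 valve minus E12.5 cushion was 0.22, -0.04, 0.95, 0.88 and 1.38. The stage difference of the gene mean thus came from 3 of the 5 probe sets.

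Complex II, the succinate dehydrogenase, is shared with the tricarboxylic acid cycle. All 4 of its genes were higher in the E17.5 valve than in MC3T3 and 3 in E12.5 cushion. Sdhd, a membrane anchor of the enzyme, had log2 ratios of 0.094 and 0.059 in E17.5 valve, -0.061 and -0.17 in E12.5 cushion, and -1.38 and -1.34 in MC3T3, a 2.70-fold difference for E17.5 valve against MC3T3 (1.43 ± 0.079, adjusted p = 2.22e-06). Sdhb, the iron-sulfur subunit, was 2.46-fold higher in E17.5 valve and 2.25-fold higher in the E12.5 cushion than in MC3T3. Sdhc, the other anchor, was 1.77-fold higher in E17.5 valve. Sdha, the flavoprotein, differed least, at 1.17-fold in E17.5 valve (0.22 ± 0.079, adjusted p = 0.0406), a call lost on leaving out any 1 of the 4 arrays (adjusted p = 0.058 to 0.22). The Sdha gene mean averages opposed probe sets, at 0.75, 0.52, -0.24 and -0.14 for E17.5 valve minus MC3T3. In the same order, E12.5 cushion minus MC3T3 was 0.57, 0.46, -0.12 and -0.49. Between stages 0 of the 4 complex II genes passed, with log2 differences of 0.12 to 0.19.

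Complex III had a median log2 difference from MC3T3 of 1.24 in E17.5 valve, the highest of the 5 complexes, and of 0.94 in E12.5 cushion, as complex II had. Of its 8 genes 6 were higher in E17.5 valve and 7 in E12.5 cushion. Uqcrh, the hinge protein that binds cytochrome c1, had log2 ratios of 0.021 and 0.065 in E17.5 valve, -0.021 and -0.19 in E12.5 cushion, and -1.60 and -1.76 in MC3T3. It was 3.30-fold higher in the E17.5 valve than in MC3T3 (1.72 ± 0.093, adjusted p = 2.06e-06). Uqcrc1, a core protein of the complex, had 0.0074 and -0.19 in E17.5 valve, -0.0074 and 0.055 in E12.5 cushion, and -1.53 in both MC3T3 arrays. The stages overlapped in Uqcrc1, and E17.5 valve was 2.71-fold above MC3T3. Uqcrc2, the second core protein, was 2.46-fold higher in the E17.5 valve than in MC3T3, Uqcr11 2.41-fold, the Rieske iron-sulfur protein Uqcrfs1 2.31-fold and the ubiquinone-binding subunit Uqcrb 2.11-fold. Those 4 genes were also the complex III genes higher at E17.5 than at E12.5, by 1.22-fold to 1.33-fold. Without replicate 1 of the E17.5 valve, the stage calls of Uqcr11, Uqcrc2 and Uqcrfs1 were lost, as were those of Atp5mpl and Ndufa4l2. Uqcr10 and Uqcrq did not pass in E17.5 valve against MC3T3.

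Complex V, the ATP synthase, had 15 of 17 genes higher in the E17.5 valve than in MC3T3, with a median log2 difference of 0.73. Of the catalytic head, the alpha subunit gene Atp5a1 was 1.55-fold and the beta subunit gene Atp5b 1.49-fold higher in the E17.5 valve than in MC3T3, and neither passed between the stages. The 9 genes of the stalks and the membrane part were all higher, at 0.61 to 1.56. Atp5mpl, a small membrane proteolipid, had log2 ratios of 0.097 and 0.11 in E17.5 valve, -0.10 and -0.18 in E12.5 cushion, and -1.47 and -1.44 in MC3T3. It was 2.95-fold above MC3T3 in E17.5 valve and 2.49-fold in E12.5 cushion. Atp5o, which joins the head to the outer stalk, was 2.46-fold and Atp5k, a membrane subunit, 2.34-fold higher in the E17.5 valve than in MC3T3.

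Subunit c, which forms the rotating ring, is encoded by 3 genes whose mature proteins are the same. Atp5g1 was 2.06-fold higher in the E17.5 valve than in MC3T3 (1.04 ± 0.086, adjusted p = 2.36e-05) and 1.26-fold higher than in E12.5 cushion (0.33 ± 0.086, adjusted p = 0.0135). Atp5g3 was 1.25-fold higher in the E17.5 valve than in MC3T3. Atp5g2 did not pass in any comparison on the gene mean, at 0.13 ± 0.084 for E17.5 valve against MC3T3 (adjusted p = 0.20). Its 3 probe sets were opposed, at 0.62, 0.13 and -0.35 for E17.5 valve minus MC3T3. In the same order, E12.5 cushion minus MC3T3 was 0.80, 0.14 and -0.65. Without replicate 1 of the E17.5 valve the stage difference of Atp5g1 did not pass (0.25, adjusted p = 0.085).

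Atp5c1, the gamma subunit that turns in the head, stood apart. Its log2 ratios were 0.28 and 0.20 in E17.5 valve, -0.30 and -0.26 in E12.5 cushion, and 0.54 and 0.37 in MC3T3. On the gene mean MC3T3 was highest and the groups did not overlap. Atp5c1 was 1.67-fold lower in E12.5 cushion than in MC3T3 (-0.74 ± 0.087, adjusted p = 0.000152) and 1.44-fold higher in E17.5 valve than in E12.5 cushion (0.52 ± 0.087, adjusted p = 0.0019). Its 2 probe sets pointed opposite ways for E17.5 valve against MC3T3, with log2 differences of 0.40 and -0.83, and the gene mean (-0.22) did not pass. They were also opposed for E12.5 cushion against MC3T3, at 0.21 and -1.69, while E17.5 valve minus E12.5 cushion was 0.19 and 0.86.

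Complex IV, cytochrome c oxidase, held the widest spread of differences, and its paralogues did not move alike. Of its 10 widely expressed subunits all were higher in the E17.5 valve than in MC3T3, at log2 differences of 0.24 to 1.05, and 9 in E12.5 cushion. Cox6b1, on the intermembrane side of the enzyme, was 2.08-fold higher in the E17.5 valve than in MC3T3 (1.05 ± 0.078, adjusted p = 1.23e-05). Cox5a was 1.69-fold higher and Cox4i1 1.32-fold higher, and neither passed between the stages (adjusted p = 0.21 and 0.14). For Cox4i1 in E12.5 cushion against MC3T3, a 1.19-fold difference, the call was lost on leaving out any 1 of the 4 arrays (adjusted p = 0.0505 to 0.16).

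The 3 heart and skeletal muscle isoforms, Cox6a2, Cox7a1 and Cox8b, had the largest differences of any subunit gene in E17.5 valve against MC3T3. Cox7a1 had log2 ratios of 0.37 and 0.33 in E17.5 valve, -0.42 and -0.70 in E12.5 cushion, and -6.63 and -6.64 in MC3T3. The second MC3T3 array was at the floor. Cox7a1 was at least 127-fold higher in E17.5 valve and at least 67.5-fold higher in the E12.5 cushion than in MC3T3, and 1.88-fold higher in E17.5 valve than in E12.5 cushion (0.91 ± 0.10, adjusted p = 0.000304).

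Cox8b was the subunit gene that differed most between the stages. Its log2 ratios were 0.79 and 0.90 in E17.5 valve, -1.87 and -2.14 in E12.5 cushion, and -5.10 and -5.37 in MC3T3. The 3 groups were far apart, with the cushion between. Cox8b was 7.22-fold higher in E17.5 valve than in E12.5 cushion (2.85 ± 0.12, adjusted p = 8.89e-06), 67.7-fold higher in the E17.5 valve than in MC3T3 and 9.38-fold higher in the E12.5 cushion than in MC3T3. Cox6a2 had 0.29 and 0.44 in E17.5 valve, -0.37 and -0.43 in E12.5 cushion, and -3.55 and -3.69 in MC3T3. It was 1.70-fold higher in E17.5 valve than in E12.5 cushion (0.76 ± 0.089, adjusted p = 0.00038), 15.8-fold higher than in MC3T3, and 9.30-fold higher in the E12.5 cushion than in MC3T3.

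The cardiomyocyte markers given above moved the same way across the groups. Of these, the muscle creatine kinases Ckmt2 and Ckm were 14.5-fold and 7.24-fold higher in E17.5 valve than in E12.5 cushion. The sarcomere genes Myh7 and Tnnt2 differed between the stages by 0.095 (not passing, adjusted p = 0.40) and 0.48 (adjusted p = 0.00137). The part of heart muscle cells in the differences of the 3 isoforms was not tested. The subunit genes that are not tissue isoforms numbered 74. In E17.5 valve against MC3T3, 64 of these passed as higher (86.5%, against 21.3% of all genes) and 0 as lower (against 38.8%). In E17.5 valve against E12.5 cushion, 20 passed as higher (27.0%, against 19.3%) and 0 as lower (against 34.2%). Leaving out isoform genes does not take heart muscle RNA out of the values of the others. The part of heart muscle cells in these counts was therefore not tested either.

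The widely expressed partners of these isoforms differed far less. Cox6a1 was 1.31-fold, Cox7a2 1.91-fold and Cox8a 1.18-fold higher in the E17.5 valve than in MC3T3. The Cox8a value averages probe set differences of 0.41, 0.44 and -0.13. Between the stages none of Cox6a1, Cox7a2 and Cox8a passed, with log2 differences of -0.0094, 0.14 and -0.060. The call of Cox8a against MC3T3 was lost on leaving out any 1 of the 4 arrays (adjusted p = 0.051 to 0.19). Cox7a2l, a related factor that helps to join complexes III and IV, did not pass in any comparison.

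**Figure D2:**
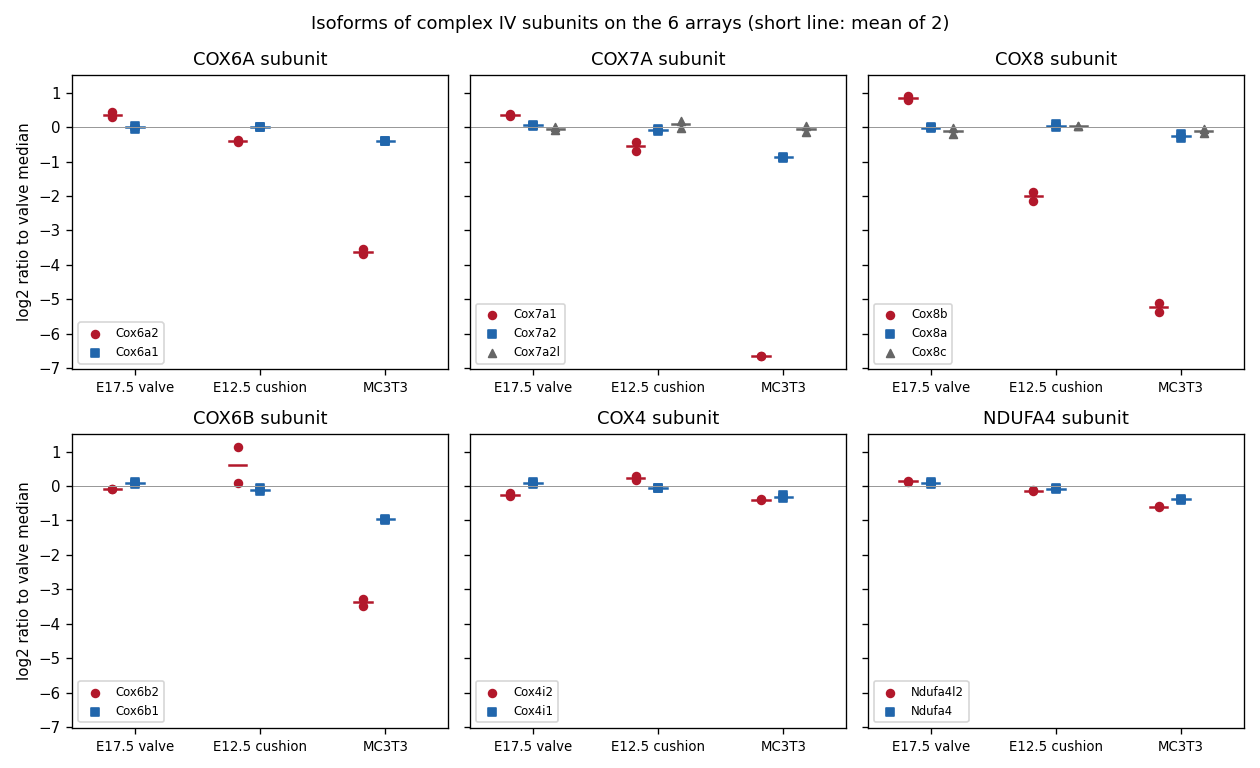
Log2 ratios of complex IV paralogues on the 6 arrays, E17.5 valve, E12.5 cushion and MC3T3 from left to right. Points are arrays and short lines the mean of 2; Cox6a2, Cox7a1, Cox8b and Cox6b2 lie between -3 and the floor in MC3T3 while Cox6a1, Cox7a2, Cox8a and Cox6b1 stay far above them.

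Among the other paralogues, Cox6b2, a form known from testis, had log2 ratios of -0.090 and -0.075 in E17.5 valve, 1.13 and 0.072 in E12.5 cushion, and -3.27 and -3.47 in MC3T3. The E12.5 cushion arrays disagreed, and both lay far above MC3T3. Cox6b2 was 9.78-fold higher in E17.5 valve and 15.7-fold higher in the E12.5 cushion than in MC3T3, while the stages differed by -0.68 ± 0.29 (adjusted p = 0.077). Without replicate 1 of the E12.5 cushion the stage difference was -0.15 (adjusted p = 0.28), and without replicate 2 it was -1.21 (adjusted p = 0.000374), with the spread of the lone cushion array taken from the other groups. Cox7b2 and Cox8c, also known from testis, had differences of 0.63 (adjusted p = 0.00398) and -0.0041 (adjusted p = 0.97) for E17.5 valve against MC3T3.

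Cox4i2, a form of subunit 4 known from lung and from responses to low oxygen, was the single subunit gene that passed as lower at E17.5 than at E12.5. It had log2 ratios of -0.30 and -0.21 in E17.5 valve, 0.18 and 0.30 in E12.5 cushion, and -0.38 and -0.42 in MC3T3. E12.5 cushion was thus highest, and E17.5 valve was 1.41-fold lower than it (-0.50 ± 0.082, adjusted p = 0.00184). Ndufa4, first assigned to complex I and now to complex IV, was 1.40-fold higher in the E17.5 valve than in MC3T3. Its paralogue Ndufa4l2, known as a gene induced by low oxygen, was 1.66-fold higher in the E17.5 valve than in MC3T3 and 1.20-fold higher than in E12.5 cushion (0.27 ± 0.073, adjusted p = 0.0166).

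Cox7c had the second largest stage difference, and among the subunits other than Cox6b2 it had the largest standard error. Its log2 ratios were 1.05 and 0.40 in E17.5 valve, -0.96 and -0.57 in E12.5 cushion, and -0.20 and 0.19 in MC3T3. The E17.5 arrays were the highest, the E12.5 arrays the lowest, and no groups overlapped. Cox7c was 2.80-fold higher in E17.5 valve than in E12.5 cushion (1.49 ± 0.23, adjusted p = 0.00136). Against MC3T3 it was 1.66-fold higher in E17.5 valve (0.73 ± 0.23, adjusted p = 0.0266) and 1.69-fold lower in E12.5 cushion (-0.76 ± 0.23, adjusted p = 0.0223). Both calls against MC3T3 were lost without some single arrays: to 0.40 (adjusted p = 0.15) without E17.5 replicate 1, 0.53 (adjusted p = 0.15) without MC3T3 replicate 1, -0.57 (adjusted p = 0.12) without E12.5 replicate 1 and -0.56 (adjusted p = 0.14) without MC3T3 replicate 2.

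The promoters of the isoform pair Cox8b and Cox8a, and of Cox7a1 and Cox7a2, are printed for comparison of a muscle form with its widespread partner. They are RefSeq windows of 300 bases on GRCm38.p6, from 250 bases before to 50 after the start that the promoter table uses, written along the gene's strand with motif matches in capitals. Cox8b lies at chr7:140900397-140900696 on the minus strand and Cox8a at chr19:7217567-7217866 on the minus strand. Cox7a1 lies at chr7:30183921-30184220 on the plus strand and Cox7a2 at chr9:79759804-79760103 on the minus strand. The Cox7a2 window lies inside the span annotated for that gene, chr9:79755241-79771422, while the other windows printed lie at the end of theirs. The capitals mark the letters TATAAA in Cox8b, which begin at base 5 after the annotated start, and 2 matches to the GABP motif in Cox8a.
Cox8b: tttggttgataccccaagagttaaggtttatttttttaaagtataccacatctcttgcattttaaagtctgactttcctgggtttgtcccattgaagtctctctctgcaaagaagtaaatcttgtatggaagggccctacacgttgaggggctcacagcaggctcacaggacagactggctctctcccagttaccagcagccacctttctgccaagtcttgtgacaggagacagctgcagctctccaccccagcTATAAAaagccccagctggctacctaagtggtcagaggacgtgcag
Cox8a: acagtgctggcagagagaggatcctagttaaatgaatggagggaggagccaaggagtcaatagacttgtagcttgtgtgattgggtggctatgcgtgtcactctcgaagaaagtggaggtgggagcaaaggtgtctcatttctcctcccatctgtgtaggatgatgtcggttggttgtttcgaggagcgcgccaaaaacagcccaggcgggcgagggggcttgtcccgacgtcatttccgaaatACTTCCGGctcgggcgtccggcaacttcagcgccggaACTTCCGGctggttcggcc
Cox7a1: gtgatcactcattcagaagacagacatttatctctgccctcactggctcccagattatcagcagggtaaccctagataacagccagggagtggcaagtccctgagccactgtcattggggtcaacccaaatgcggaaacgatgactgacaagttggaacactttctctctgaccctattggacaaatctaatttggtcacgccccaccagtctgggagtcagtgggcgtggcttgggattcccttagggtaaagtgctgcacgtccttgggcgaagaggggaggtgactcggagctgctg
Cox7a2: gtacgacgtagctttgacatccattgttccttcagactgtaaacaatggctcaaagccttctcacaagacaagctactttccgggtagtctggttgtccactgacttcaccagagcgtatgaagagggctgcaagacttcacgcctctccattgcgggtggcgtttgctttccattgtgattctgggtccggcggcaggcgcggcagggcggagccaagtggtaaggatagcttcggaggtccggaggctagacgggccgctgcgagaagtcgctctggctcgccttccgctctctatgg

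Short motifs of factors linked to mitochondrial or muscle genes, and the letters TATAAA, were searched on both strands in such windows, which 67 of the subunit genes had. The letters of the NRF1 motif (GCGCA, any base, GCGC) were in 15 of the 67 (22.39%), against 8.61% of all 14452 genes with a window. The YY1 motif AAGATGGCG was in 6 (8.96%, against 2.53%), and the GABP motif CCGGAAGT in 5 (7.46%, against 6.62%). The estrogen-related receptor motif TCAAGGTCA was in 2 (2.99%, against 0.4%), the MEF2 motif (CTA, any 4 bases, TAG) in 1 (1.49%, against 4.01%) and TATAAA in 8 (11.94%, against 11.5%). The median log2 difference for E17.5 valve against MC3T3 was 0.53 in subunit genes with the NRF1 letters and 0.72 in those without. A match is a run of letters and not a shown binding site.

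The windows of Uqcrc1 and Sdhd, which after Ndufa6 differed most among the genes with the NRF1 letters in E17.5 valve against MC3T3, show how matches lie. Uqcrc1 lies at chr9:108936398-108936697 on the plus strand and has 2 NRF1 matches. Sdhd lies at chr9:50603800-50604099 on the minus strand and has 1 NRF1 match and 1 match to the estrogen-related receptor motif.
Uqcrc1: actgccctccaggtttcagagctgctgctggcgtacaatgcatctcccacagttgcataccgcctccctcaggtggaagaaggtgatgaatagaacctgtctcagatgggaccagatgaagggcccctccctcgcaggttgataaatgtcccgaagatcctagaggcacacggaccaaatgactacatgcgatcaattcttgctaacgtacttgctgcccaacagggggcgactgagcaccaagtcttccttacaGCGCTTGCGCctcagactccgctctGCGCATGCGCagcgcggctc
Sdhd: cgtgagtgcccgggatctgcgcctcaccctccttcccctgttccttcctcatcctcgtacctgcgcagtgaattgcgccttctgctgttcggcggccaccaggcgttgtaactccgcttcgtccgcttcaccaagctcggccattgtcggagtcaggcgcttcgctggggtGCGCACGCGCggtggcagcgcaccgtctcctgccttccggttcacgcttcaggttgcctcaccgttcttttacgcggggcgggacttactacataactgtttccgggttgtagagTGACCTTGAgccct

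Probe sets of the same gene did not always agree. For E17.5 valve against MC3T3, 144 of the 169 probe sets were higher. Of 49 genes with more than 1 probe set, 33 had the same direction in all of them and 12 had probe sets at least 2-fold apart. Uqcr10, a small complex III subunit, had probe set differences of 2.82, -0.48 and -1.58. Ndufb8 had 1.24 and -1.33, and Uqcrq 1.24, -0.16, -0.22 and -0.70. Each of these genes did not pass in E17.5 valve against MC3T3 on the gene mean, although 1 probe set stood more than 2-fold higher. Opposed probe sets were also seen in Sdha, Ndufv1, Cox8a and Atp5g2, whose gene means are given above, and in further genes such as Cox5b and Ndufa12. Of the 33 genes with a single probe set, 30 were higher in the E17.5 valve than in MC3T3 and 0 lower, and of the 49 with several, 40 were higher and 0 lower.

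**Figure D3:**
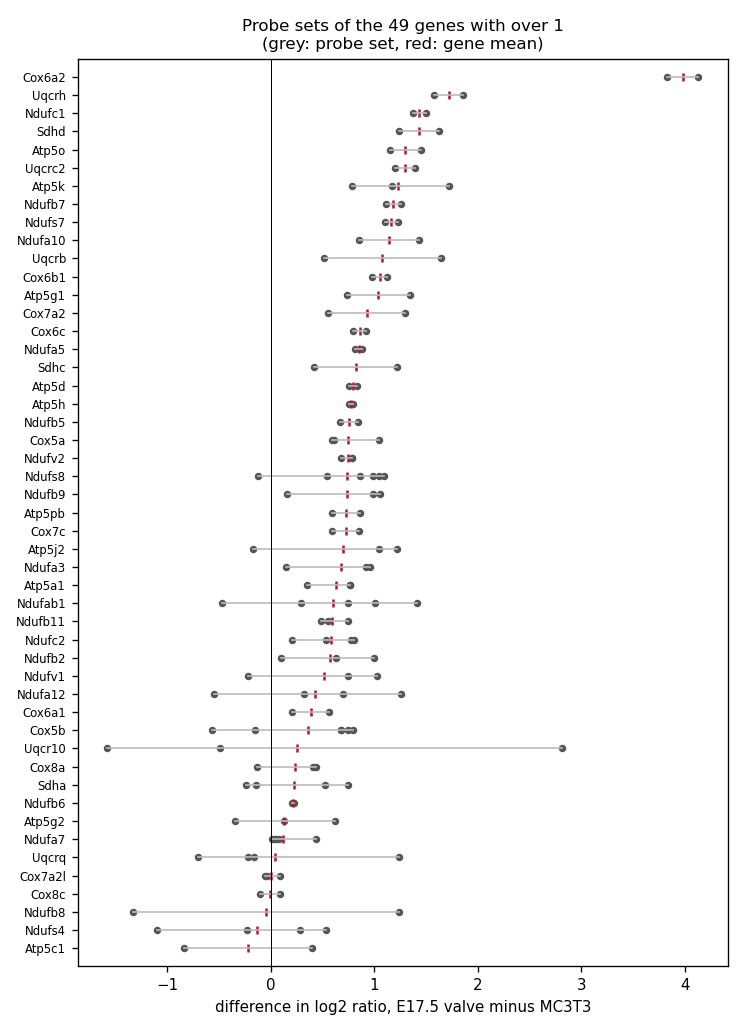
Log2 difference of E17.5 valve minus MC3T3 for every probe set of the 49 genes with more than 1, ordered by the gene mean. Grey points are probe sets and red ticks gene means. In 33 of the 49 genes all probe sets have the same direction. The others, among them Uqcr10, Ndufb8, Uqcrq, Ndufs4, Atp5c1, Sdha, Ndufv1, Cox8a and Atp5g2, have probe sets on both sides of 0.

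Other mitochondrial genes were counted from lists by pathway. Of 16 genes of the tricarboxylic acid cycle, 13 were higher and 0 lower in E17.5 valve than in MC3T3, and 10 were higher and 0 lower than in E12.5 cushion, with median log2 differences of 0.67 and 0.32. In E12.5 cushion 11 were higher and 4 lower than in MC3T3, so the share that was lower (25.0%) was near the 28.3% of all genes. Idh3a, of the NAD-linked isocitrate dehydrogenase, was 3.40-fold higher in the E17.5 valve than in MC3T3 (adjusted p = 6.09e-07). Dlat, of the pyruvate dehydrogenase complex, was 2.57-fold higher in the E17.5 valve than in MC3T3, and Pdha1 of the same complex 2.10-fold higher in E17.5 valve than in E12.5 cushion. Of 14 fatty acid oxidation genes 11 were higher and 1 lower in E17.5 valve than in MC3T3, and 7 higher and 4 lower than in E12.5 cushion (8 higher and 1 lower with arrays centred). The thiolase gene Acaa2 was 6.93-fold higher in the E17.5 valve than in MC3T3, and Acadm, the medium-chain acyl-CoA dehydrogenase, 2.25-fold higher in E17.5 valve than in E12.5 cushion.

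Of 19 electron carriers and their partners, 10 were higher (52.6%) and 3 lower (15.8%) in E17.5 valve than in MC3T3. Of all genes 21.3% were higher and 38.8% lower. Cyc1, the cytochrome of complex III whose symbol the rule does not cover, was higher by 1.61 ± 0.083 (adjusted p = 1.56e-06), and the mobile carrier Cycs by 1.20 ± 0.085 (adjusted p = 9.25e-06). Cycs was also higher in E17.5 valve than in E12.5 cushion (0.61 ± 0.085, adjusted p = 0.000804). Coq5, of ubiquinone synthesis, was 3.56-fold and Etfb, of the electron transfer flavoprotein, 3.12-fold higher in the E17.5 valve than in MC3T3, while Gpd2, a mitochondrial glycerol phosphate dehydrogenase, was 2.09-fold lower.

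Of 45 assembly factors 6 were higher (13.3%) and 15 lower (33.3%) in E17.5 valve than in E12.5 cushion, which became 9 and 10 with arrays centred. These shares lay near those of all genes, 19.3% higher and 34.2% lower. Ndufaf4, a complex I factor, was 2.30-fold higher at E17.5. Against MC3T3 16 were higher (35.6%) and 9 lower (20.0%) in E17.5 valve, where 21.3% of all genes were higher and 38.8% lower. Cox15, of heme a synthesis, was 4.94-fold lower in E17.5 valve and 4.55-fold lower in E12.5 cushion than in MC3T3. Of 76 mitochondrial ribosome genes 6 were higher (7.9%) and 44 lower (57.9%) in E17.5 valve than in E12.5 cushion, against 19.3% and 34.2% of all genes. Their median was -0.27 beside -0.14 for all genes. With arrays centred 10 were higher and 25 lower, where 24.2% of all genes were higher and 22.1% lower. In E12.5 cushion 47 of them were higher (61.8%) and 3 lower (3.9%) than in MC3T3, against 29.4% and 28.3% of all genes. In E17.5 valve 28 were higher (36.8%) and 6 lower (7.9%) than in MC3T3, against 21.3% and 38.8%.

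Of 17 regulators and factors of mitochondrial DNA, 3 were higher (17.6%) and 8 lower (47.1%) in E17.5 valve than in MC3T3. These shares lay near the 21.3% higher and 38.8% lower of all genes. Ppargc1a, a coactivator known to drive mitochondrial gene programmes, had log2 ratios of 0.84 and 0.56 in E17.5 valve, -1.15 and -0.93 in E12.5 cushion, and -5.70 and -5.84 in MC3T3. Its groups did not overlap. Ppargc1a was 3.34-fold higher in E17.5 valve than in E12.5 cushion (1.74 ± 0.12, adjusted p = 5.13e-05), at least 88.6-fold higher in the E17.5 valve than in MC3T3 and at least 26.6-fold higher in the E12.5 cushion than in MC3T3, where 2 of its probe sets were each at the floor on 1 array. Its relative Ppargc1b was 2.57-fold higher in E17.5 valve than in E12.5 cushion and 4.58-fold higher than in MC3T3. Nrf1, a factor whose motif was searched above, was lower in E17.5 valve than in E12.5 cushion (-0.39 ± 0.074, adjusted p = 0.00353) and than in MC3T3 (-0.34 ± 0.074, adjusted p = 0.00506). Gabpa was 0.99 ± 0.081 higher in E17.5 valve than in E12.5 cushion (adjusted p = 9.04e-05), and Tfam, which packages mitochondrial DNA, 0.28 ± 0.086 higher (adjusted p = 0.0274). In E12.5 cushion against MC3T3, Gabpa was 2.12-fold lower (adjusted p = 1.09e-05) and Tfb2m 2.59-fold lower (adjusted p = 8.32e-06). There 2 of the 17 were higher (11.8%) and 5 lower (29.4%), against 29.4% and 28.3% of all genes. Between the stages 6 were higher (35.3%) and 8 lower (47.1%), against 19.3% and 34.2%.

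Glycolysis genes were also higher in the embryonic tissue than in MC3T3: all 15 passed as higher in both E17.5 valve and E12.5 cushion, with median log2 differences of 0.79 and 1.43. Between the stages 2 were higher and 8 lower in E17.5 valve, or 2 and 5 with arrays centred. The glucose transporter gene Slc2a1 was 2.67-fold lower in E17.5 valve than in E12.5 cushion and stood 6.62-fold above MC3T3 in E12.5 cushion. Counts mostly higher against MC3T3 were thus seen in glycolysis genes as well as in the oxidative phosphorylation genes.

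**Figure D4:**
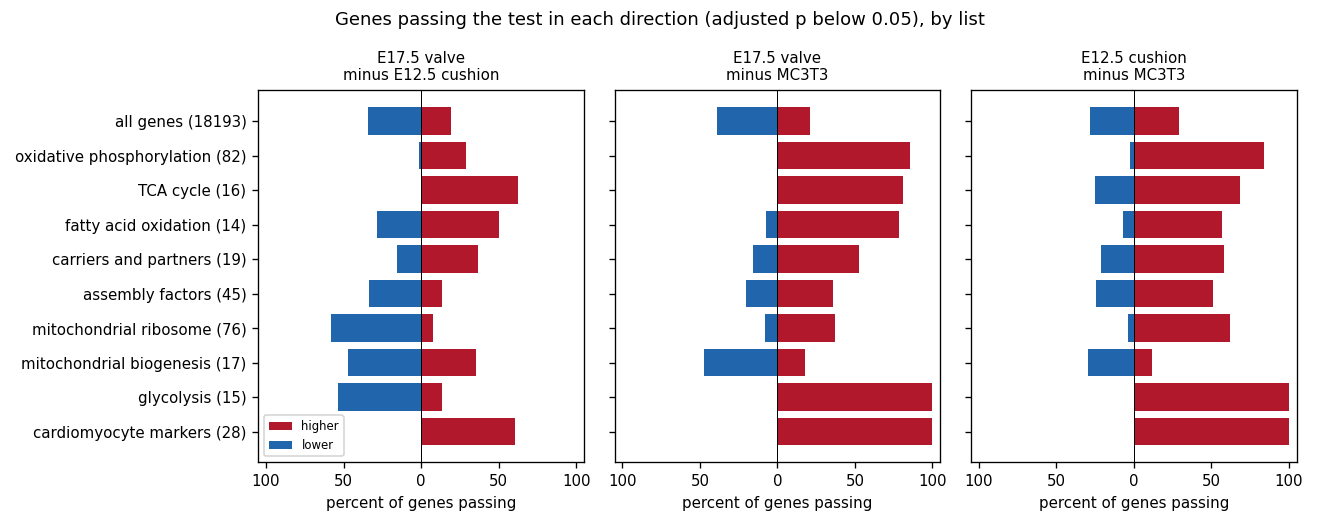
Percent of the genes of each list that passed as higher (red, right) or lower (blue, left) in each comparison, with the number of genes in brackets. Oxidative phosphorylation genes pass mostly as higher against MC3T3, as do glycolysis genes, and mitochondrial ribosome genes mostly as lower in E17.5 valve against E12.5 cushion.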

How the data were processed

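RNA from 6 pools was hybridised to 1 array each, amplified by one of 2 routes named in the labels; which sample had which route is not stated there. Per the deposited experiment description, the authors normalised the arrays by RMA and divided each gene by its median over the valve arrays, giving the deposited linear ratios; RMA is also named in the submitters' processing notes. Of 45101 probe sets, all had a median of 1 over the 4 valve and cushion arrays (tolerance 1e-05), and the lowest ratio was 0.01. Ratios carry no signal over background, so low expression cannot be told from none, and the number of arrays limits the precision.

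From the deposited ratios, log2 values were averaged per gene over probe sets naming that gene alone, with symbols updated by gene ID through the RefSeq table (18145 of 18193 found there). Left out were 64 control probe sets, 932 naming several genes and 9160 with no name. All 18193 genes entered 1 limma fit over the 6 arrays (lmFit and eBayes, limma 3.58.1, R 4.3.3), with Benjamini-Hochberg adjustment within each comparison, and every adjusted p and standard error here is from it unless an alternative is named. The fit was tested on simulated data. Tables and figures were made with pandas 2.3.3 and matplotlib 3.10.9 in Python 3.11.15. Promoter windows came from RefSeq (GRCm38.p6).

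Subunit genes were named by rule: those called at 2-fold, the 5 largest passing differences each way per comparison, catalytic subunits and isoform families. The lists gave at most the 2 largest called differences each way per comparison, and not all of these are printed. Among those left out are Coq7 and Ndufaf3, which were higher, and Coq8a and Tmem70, which were lower, in E12.5 cushion than in MC3T3. Other genes named (for example Cyc1, Cycs, Nrf1, Tfam, Myh7, Tnnt2 and genes with discordant probe sets) were chosen after their values were seen. The members, gene lists and motifs were chosen with earlier results of these data known. Alternatives covered array centring, the variance model, the replicate block, each array left out, the arrays fitted, the probe sets used, thresholds and, for the 3-group test, an analysis of variance.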

Additional observations from a re-analysis of the deposited data

Results flagged for a closer look

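Cox7c, a widely expressed complex IV subunit, was singled out because its difference from MC3T3 had opposite signs at the 2 stages and the difference between them passed the test. The log2 difference from MC3T3 was 0.73 in E17.5 valve and -0.76 in E12.5 cushion, so the stages differed by 1.49 (limma, adjusted p = 0.00136). With each of the 4 embryonic arrays left out in turn this stage difference was 1.16 to 1.81 and passed each time. Since both values use the same MC3T3 arrays, their difference equals the difference of E17.5 valve minus E12.5 cushion.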

How the results depend on the processing

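For E17.5 valve against E12.5 cushion, 25 genes passed. Centring each array gave 46 (45 higher and 1 lower, median 0.24), an adjusted p below 0.01 gave 10, and leaving out 1 array at a time gave 10 (without E17.5 replicate 1) to 27. Without E17.5 replicate 1, or without E12.5 replicate 2, the share of subunit genes that was higher lay below that of all genes, as given above. Counted by probe set, 15.4% were higher, where 20.7% of all probe sets were. Without replicate 1 of both embryonic groups, an alternative chosen after seeing the data, 15 passed. The 2 genes called at 2-fold became 5 at 1.5-fold and, with every probe set counted as its own item (also chosen after seeing the data), 4 of 169. For E12.5 cushion against MC3T3, the count at 2-fold was 30 with the most variable probe set (26 higher and 4 lower, median 0.71) and 42 at 1.5-fold, and by probe set 137 passed, 41 of them at 2-fold. Leaving out 1 array gave 58 to 68 genes passing and medians of 0.53 to 0.62. For E17.5 valve against MC3T3, the median was 0.85 centred and 0.86 with the most variable probe set, 51 genes were called at 1.5-fold, and by probe set 135 passed, 51 of them at 2-fold. Leaving out 1 array gave 66 to 67 genes. Ndufab1 in E17.5 valve against MC3T3 turned to -0.47 (adjusted p = 0.070) with its most variable probe set. The causes of these changes were not tested, apart from those that follow from a changed threshold or item count.

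Of the other summary values, 95 stayed within the limits set for a change. Over all genes, the deviations of same-numbered arrays correlated by 0.15 for E17.5 valve with E12.5 cushion and 0.058 for E12.5 cushion with MC3T3. For E17.5 valve with MC3T3 the correlation was 0.023. Over the subunit genes alone these correlations were larger in size and of both signs, at -0.33, 0.36 and -0.45 in the same order. On the values over all genes, the numbers were not taken to pair samples. With the replicate block 26 genes passed between the stages, 71 in E12.5 cushion against MC3T3, 70 in E17.5 valve against MC3T3 and 70 over the 3 groups. Sdha in E17.5 valve against MC3T3 no longer passed (adjusted p = 0.054) and Cox6b2 passed between the stages (adjusted p = 0.041).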

Other observations

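Probe sets shared by a subunit gene and a near-identical or neighbouring gene were kept out of the gene values. The probe set naming Ndufs6 with Ndufs6b had log2 ratios of 0.048 and 0.020 in E17.5 valve, -0.020 and -0.038 in E12.5 cushion, and -1.48 and -1.53 in MC3T3, a difference of 1.54 for E17.5 valve minus MC3T3. These single probe sets were not tested. Both probe sets naming Ndufb4 with Ndufb4b and Ndufb4c were higher in the E17.5 valve than in MC3T3, by 1.06 and 1.20, whereas the 1 probe set naming Ndufb4 alone differed by -0.018. Those naming Ndufa11 with Ndufa11b differed by 1.25 and 0.014, those naming Ndufa13 with Yjefn3 by -0.32 and -0.14, the one naming Ndufb2 with Adck2 by 0.043, the one naming Ndufs5 with Ndufs5-ps by 0.66 and the one naming Ndufab1 with Ndufab1-ps by 1.3.

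Among markers of blood cells, 8 of 11 erythroid genes were lower and 0 higher in E17.5 valve than in E12.5 cushion, and 12 of 12 macrophage genes were higher in both embryonic groups than in MC3T3. The erythroid mean log2 ratio was -1.45 and -1.72 in E17.5 valve, 1.11 and 0.20 in E12.5 cushion, and -3.35 and -3.41 in MC3T3.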
